A study of Mus musculus with 24 samples.

Results

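Whether CBLB502 given before cisplatin changed what cisplatin did in the mouse kidney was asked by an interaction: the log2 change of the combination over CBLB502 minus the log2 change of cisplatin over control. It used all 12 kidney libraries of a series of 24 liver and kidney libraries, chosen by the tissue code in their column names, with 3 libraries in each of 4 arms. The combination arm received CBLB502 at 0.2 mg/kg, then cisplatin at 20 mg/kg 30 min later, both into the peritoneum, and the kidney was taken at 72 h. The CBLB502 arm received that agent alone and the cisplatin arm cisplatin alone, at the same doses, also with kidneys taken at 72 h. The control arm is described only as untreated, with no vehicle, time or clock time. All mice were C57BL/6 with no other allele named. Separate animals are not stated for the libraries of an arm. The p-values therefore rest on library spread alone, some of which may be technical.

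CBLB502 is a shortened flagellin that activates TLR5, a receptor of the innate immune system that signals through the adaptor MyD88 to NF-kB. Cisplatin is a platinum drug that crosslinks DNA. In the kidney it is taken up by transporters of the proximal tubule, where it damages epithelial cells, induces targets of p53 and leaves transcripts such as Havcr1, the kidney injury molecule. A higher interaction means that the step from CBLB502 to the combination lay above the step from control to cisplatin, and a lower one that it lay below.

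Library checks came before any comparison. Mitochondrial genes and their 7 copies on chromosome 1 were left out throughout, since mitochondrial genes took 7.6% ± 0.177 of counts in the combination, 13.6% ± 0.524 with CBLB502, 8.12% ± 2.02 with cisplatin and 64.7% ± 4.14 in controls (SD, n = 3 each). The other genes kept 44.0 to 68.8 M counts per treated library (M for mega) and 5.05 to 10.1 M per control library. Cisplatin library 6 stood apart from its arm: its mean distance, in log2 counts per M counts (CPM), was 1.49 to the other cisplatin libraries, 0.98 to the combination and 1.11 to CBLB502. The same distance to the own arm was 1.25 for cisplatin library 4 and 1.24 for library 5. By this measure it went against its label. Every cisplatin mean and interaction value that includes it rests on that label, which was not tested, so counts and gene values are also given without it. The defining kidney genes Slc34a1, Lrp2, Umod, Slc12a3, Aqp2 and Nphs1 had counts in every library, with a lowest level of 14 CPM for Nphs1 in control library 2.

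**Figure D1:**
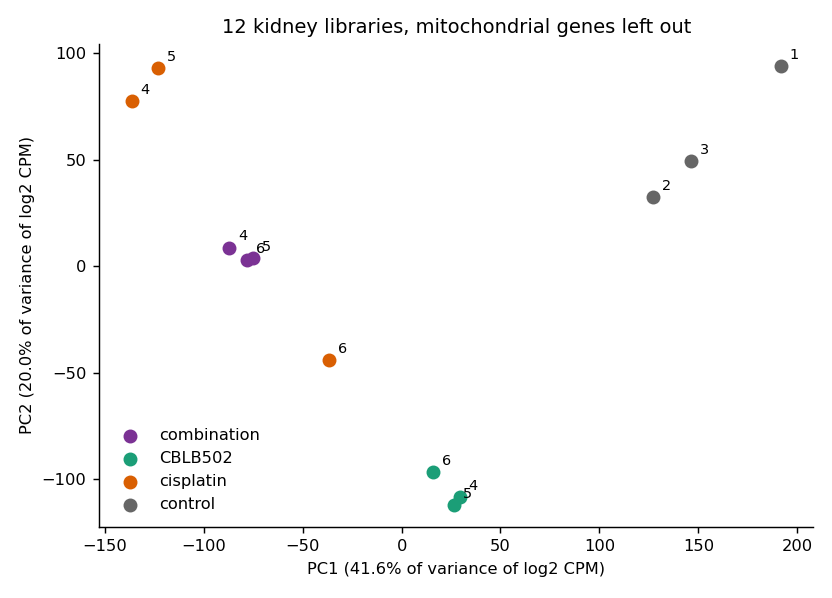
Principal components of log2 CPM of the 12 kidney libraries, with the first component (41.6% of the variance) across and the second (20.0%) up. Points are single libraries with their column numbers. The 3 control libraries lie at the right, cisplatin libraries 4 and 5 at the upper left, and cisplatin library 6 between the combination and CBLB502 libraries.

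The interaction was called for 1643 of 21222 genes tested (7.74%) at an adjusted p under 0.05, with 446 higher (2.1%) and 1197 lower (5.64%). The median over all genes was -0.09 on the log2 scale. Of the 446 genes called higher, 375 (84.1%) had their highest arm mean in controls, which held for 31.7% of all genes tested, and 300 (67.3%) had their lowest mean with CBLB502. Among the 1197 called lower, 1075 (89.8%) had their lowest mean in controls, against 32.9% of all genes tested, with the highest mean in CBLB502 for 537 and in cisplatin for 468. The combination held the highest mean of 64 of the 446 higher genes. The control level enters every interaction value, so the interaction and the kind of control library cannot be told apart. Nor can fewer cells of a type be told apart from less RNA per cell in any of these bulk samples.

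Leaving out cisplatin library 6, 5330 of 21895 genes were called (24.3%), with 2122 higher (9.69%) and 3208 lower (14.7%). All 1643 calls made with 12 libraries were among them. DESeq2 on 12 libraries called 1296 higher and 1768 lower, which put the share of higher calls at 42.3%, against 27.1% in the edgeR fit. Its median over all genes was 0.02, against -0.09 with edgeR, so every log2 value here is relative to the scaling. Without CBLB502 library 4, 137 were higher and 427 lower, the lowest counts of the 12 fits that each left out 1 library.

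**Figure D2:**
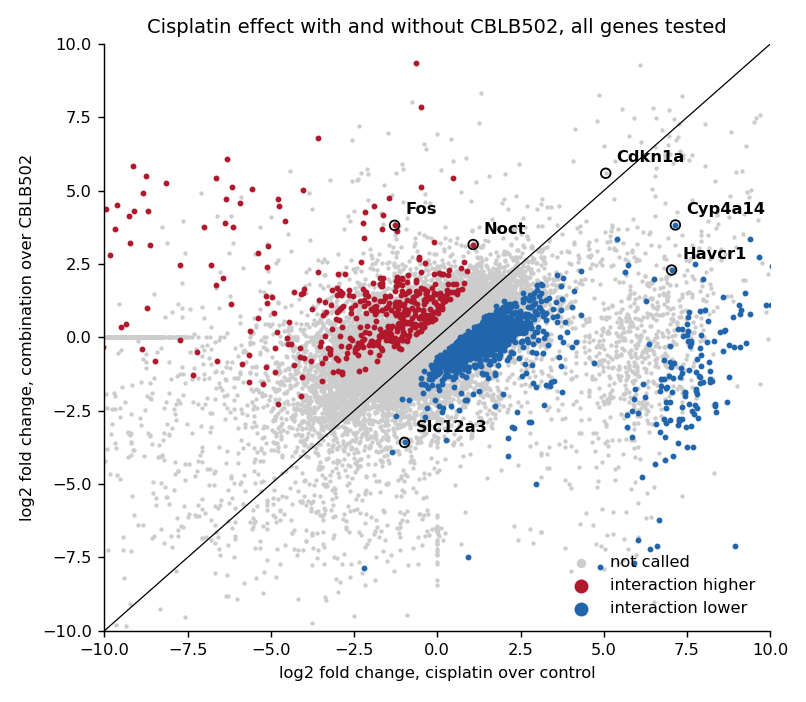
Log2 fold change of the combination over CBLB502 (vertical) against that of cisplatin over control (horizontal), one point per gene tested, with the line of equal change drawn. Red genes above the line were called higher for the interaction and blue genes below it lower. Noct and Fos lie above the line, Havcr1, Cyp4a14 and Slc12a3 below, and Cdkn1a near it. Axes stop at a log2 change of 10, which leaves 118 genes outside, 32 of them called, and the row of points at 0 on the left holds genes without counts in either CBLB502-treated arm.

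The combination against cisplatin alone, a comparison of means with no control library in it, called 1 gene of 21222 (0.00471%), while 2735 had an unadjusted p under 0.05. DESeq2 called 634 genes there and limma-voom 6. With cisplatin library 6 left out, edgeR called 4629 genes (21.1%), with 2363 higher (10.8%) and 2266 lower (10.3%), and without cisplatin library 4 it called 0. In the same fit of 12 libraries, the combination differed from CBLB502 in 4704 genes (22.2%), CBLB502 from control in 4021 (18.9%) and cisplatin from control in 8122 (38.3%). Without cisplatin library 6 these 3 counts were 7244 (33.1%), 6107 (27.9%) and 10820 (49.4%).

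The single gene called between the combination and cisplatin was Noct (ENSMUSG00000023087, chromosome 3, 51224447 to 51251644), which encodes nocturnin, a rhythmically expressed phosphatase of NADP(H). It had 265, 161 and 188 CPM in the combination, 26.7, 19.3 and 22.4 with CBLB502, 45.3, 47.1 and 52.1 with cisplatin, and 23.4, 23.7 and 21.4 in controls. Every combination library lay above every other library, while CBLB502 and control libraries overlapped. The combination mean was 4.25-fold the cisplatin mean (log2 2.09 ± 0.195 SE, adjusted p = 0.00414), and the interaction was 2.09 ± 0.27 (adjusted p = 0.00244), or 2.14 without cisplatin library 6 (adjusted p = 0.000311). Its interaction call held in all 12 fits without 1 library, with adjusted p values up to 0.0114. The call against cisplatin ended without cisplatin library 4, as the count of 0 there shows. It also ended when the 9 treated libraries were fitted without the controls, whose spread the fit of 12 shares (2.08, adjusted p = 0.0644). Noct overlaps the predicted gene Gm38357.

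Arrdc2 (ENSMUSG00000002910, chromosome 8, 70835129 to 70839720), an arrestin-domain gene, followed. Its levels were 76.2, 107 and 82.2 CPM in the combination, 9.33, 9.98 and 8.26 with CBLB502, 27.4, 28.2 and 17.8 with cisplatin, and 24, 17.2 and 37.6 in controls. All combination libraries were the highest and all CBLB502 libraries the lowest, and the cisplatin and control libraries overlapped. The interaction was 3.37 ± 0.392 (adjusted p = 0.00164) and was called in every fit without 1 library, while the combination against cisplatin (1.86, adjusted p = 0.141) was called without cisplatin library 6 (1.67, adjusted p = 0.00123).

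Tyms, which makes thymidylate for DNA synthesis, had 42.0, 39.8 and 35.1 CPM in the combination, 11.3, 11.8 and 15.2 with CBLB502, 18.5, 25.4 and 21.1 with cisplatin, and 20.2, 17.4 and 15.5 in controls. Here too the combination libraries were the highest (interaction 1.31 ± 0.264, adjusted p = 0.0148). Without CBLB502 library 4 its adjusted p was 0.0509. Mcm6, a subunit of the replicative helicase, went the other way, with 10.8, 10.7 and 9.2 CPM in the combination, 25.9, 26.1 and 22.7 with CBLB502, 23.6, 23.6 and 21.3 with cisplatin, and 19.4, 21.8 and 15.6 in controls. Its combination libraries lay below all others (-1.55 ± 0.244, adjusted p = 0.00536, called in all 12 fits without 1 library). These were the 1 higher and 1 lower call among 30 genes of cell cycle and proliferation (median 0.15), against 2.1% and 5.64% of all genes. Without cisplatin library 6, 4 were higher and 3 lower (median 0.38), against 9.69% and 14.7% of all genes.

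A further 4 genes joined the higher side as those with the smallest unadjusted p between the combination and cisplatin: Cyp27a1, the mitochondrial sterol hydroxylase, Acot11, an acyl-CoA thioesterase, Mocs2 of molybdenum cofactor synthesis, and Prob1. Cyp27a1 had 111, 143 and 134 CPM in the combination, 38.4, 41.3 and 46.4 with CBLB502, 79.6, 62.6 and 67.3 with cisplatin, and 45.3, 38.2 and 54.0 in controls. Its combination libraries were the highest, and the CBLB502 and control libraries overlapped. Their interactions were 1.01 for Cyp27a1, 1.75 for Acot11, 1.05 for Mocs2 and 0.90 for Prob1 (adjusted p = 0.0258, 0.0426, 0.0361 and 0.0287). The Cyp27a1 call ended without combination library 5 or 6, CBLB502 library 4 or 5 or control library 3 (adjusted p 0.0674 to 0.0803), Acot11's without any library other than cisplatin library 6 (0.0535 to 0.113), Mocs2's without any but CBLB502 library 6 and cisplatin library 6 (0.0609 to 0.103), and Prob1's without any but cisplatin libraries 5 and 6 and control libraries 1 and 2 (0.0612 to 0.0833).

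Tubular injury genes were high in cisplatin libraries 4 and 5, with lower levels in the combination and in cisplatin library 6. Of 24 tested, 4 were called lower and 1 higher, with a median of -1.43 against -0.09 over all genes. Over all genes, 5.64% were called lower and 2.1% higher. These counts were 13 lower and 2 higher without cisplatin library 6, with a median of -1.92. The shares over all genes were then 14.7% and 9.69%. The same shares apply to each list that follows. The 4 lower genes were Havcr1, Spp1, Clu and Fgb, and the higher one was the mesenchymal filament gene Vim, at 8.19 to 42.9 CPM in treated libraries, against 121 to 178 CPM in controls. The Vim call (2.04, adjusted p = 0.0488) ended without any library other than cisplatin 4 and 6 (0.0525 to 0.112).

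Havcr1 (ENSMUSG00000040405, chromosome 11, 46735080 to 46779578), the injury receptor of proximal tubule cells, had 5.62, 8.32 and 7.64 CPM in the combination, 1.72, 1.54 and 1.12 with CBLB502, 538, 338 and 15.0 with cisplatin, and 2.75, 1.52 and 2.68 in controls. Every cisplatin library lay above every combination library, but library 6 by a narrow margin. The interaction was -4.74 ± 1.23 (adjusted p = 0.0383), and without cisplatin library 6 it was -5.32 (adjusted p = 1.77e-05). Without any other single library the call ended, at adjusted p values of 0.0582 to 0.0922, as it did with limma-voom (0.592) and with treated libraries thinned to control depth (0.0529). The combination against cisplatin was -5.37 (adjusted p = 0.23), and -5.93 ± 0.278 without cisplatin library 6 (adjusted p = 1.15e-06).

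Spp1 (ENSMUSG00000029304, chromosome 5, 104435118 to 104441050), encoding osteopontin, had 2917, 4131 and 3216 CPM in the combination, 692, 749 and 725 with CBLB502, 27368, 24776 and 2552 with cisplatin, and 299, 521 and 276 in controls. Cisplatin library 6 lay below all combination libraries, whereas libraries 4 and 5 were far above them. The interaction was -3.40 ± 0.867 (adjusted p = 0.0361), or -3.91 without cisplatin library 6 (adjusted p = 4.09e-05), and the call ended without any library other than cisplatin 6 and control 2 (0.0601 to 0.092) and with limma-voom (0.091).

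Clu (ENSMUSG00000022037), encoding the chaperone clusterin, had 707, 785 and 892 CPM in the combination, 234, 241 and 313 with CBLB502, 1522, 1740 and 493 with cisplatin, and 96.6, 64.3 and 56.4 in controls. Both arms with cisplatin lay above their counterparts without it, and all CBLB502 libraries lay above all controls. The interaction was -2.52 ± 0.535 (adjusted p = 0.0184). It ended without combination library 4 or 5, CBLB502 library 6 or control library 3 (0.0508 to 0.0563). Fgb, the fibrinogen beta chain, had 43.3, 55.6 and 31.3 CPM in the combination, 10.1, 11.2 and 11.8 with CBLB502, 1673, 1166 and 52.6 with cisplatin, and 4.27, 0 and 7.56 in controls (-5.99 ± 1.53, adjusted p = 0.0362, lost without any library other than cisplatin 6 and control 2 at 0.0521 to 0.0962, and with limma-voom at 0.301).

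Lcn2, the siderophore-binding lipocalin released in kidney injury, was not called (-2.21 ± 1.24, adjusted p = 0.296). It had 233, 274 and 149 CPM in the combination, 4.97, 5.08 and 1.47 with CBLB502, 2134, 2265 and 77.8 with cisplatin, and 2.44, 7.98 and 6.22 in controls. Cisplatin library 6 was again below the combination libraries, and without it the interaction was -2.74 (adjusted p = 0.00904). Krt20, a keratin of injured tubules named here after its values were seen, spanned 8.59 to 2863 CPM within the cisplatin arm and was not called (-5.73, adjusted p = 0.0818). Saa1, an acute phase protein, was not called either (-2.10, adjusted p = 0.515).

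**Figure D3:**
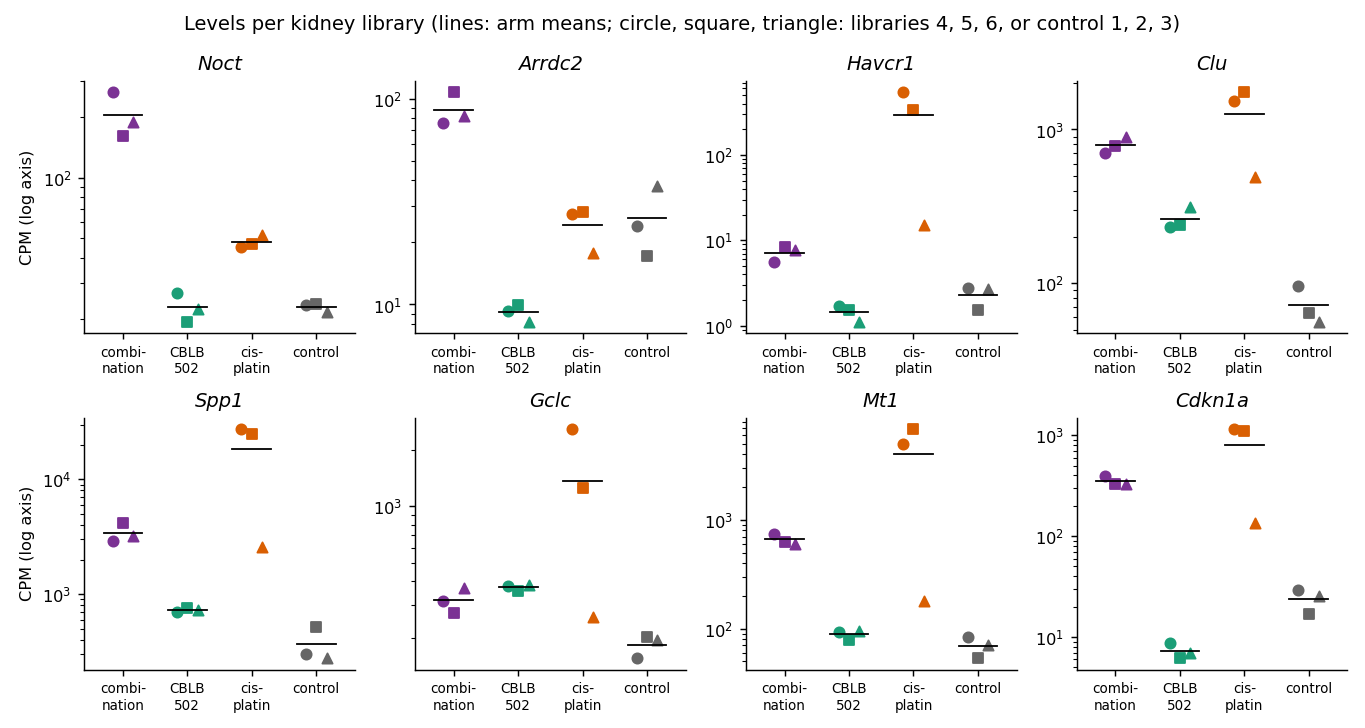
CPM on a log axis in each kidney library for genes of the response to cisplatin, by arm, with lines at arm means. Circles, squares and triangles stand for libraries 4, 5 and 6, or 1, 2 and 3 of the controls. In Havcr1, Clu, Spp1, Gclc, Mt1 and Cdkn1a the triangle of cisplatin lies far below the other cisplatin libraries, while in Noct all 3 combination libraries lie above the rest.

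Some metal-binding and antioxidant genes, Mt1, Mt2 and Gclc among them, were also lower in cisplatin library 6 than in the other cisplatin libraries. Mt1, a metallothionein that binds zinc and platinum, had 749, 631 and 602 CPM in the combination, 93.2, 77.9 and 95.6 with CBLB502, 4982, 6834 and 179 with cisplatin, and 84.0, 53.3 and 70.5 in controls. Libraries 4 and 5 of cisplatin lay above the combination and library 6 below it. The interaction missed the threshold with 12 libraries (-2.96 ± 1.11, adjusted p = 0.124) and passed it without cisplatin library 6 (-3.53, adjusted p = 2.38e-05), and Mt2 did likewise (adjusted p = 0.141, then 8.21e-05).

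Gclc (ENSMUSG00000032350, chromosome 9, 77754535 to 77794485), the catalytic subunit of glutathione synthesis, had 315, 271 and 370 CPM in the combination, 377, 357 and 380 with CBLB502, 2567, 1250 and 257 with cisplatin, and 156, 201 and 194 in controls. The combination overlapped CBLB502, and cisplatin libraries 4 and 5 exceeded all others. Its interaction was -3.11 ± 0.774 (adjusted p = 0.0332), lost without any library other than cisplatin 5 and 6 (0.0627 to 0.0867) and with limma-voom (0.0878). In the list of NRF2 and glutathione genes, 4 of 26 were called lower (5.64% of all genes) and none higher (median -0.79). Without cisplatin library 6, 14 were lower (14.7% of all genes) and 1 higher. In the list of metallothioneins and metal handling, 2 of 16 were lower (median -1.38), and 9 without that library. The 2 were the zinc transporters Slc39a14 (-2.88, adjusted p = 0.0257, held only without cisplatin library 4, 5 or 6 and otherwise 0.0511 to 0.0709, and 0.147 with limma-voom) and Slc30a1 (-1.53, adjusted p = 0.00966, held in all 12 fits without 1 library). In Slc30a1 the cisplatin libraries did not split, with 106, 85.9 and 92.7 CPM in the combination, 77.4, 94.4 and 60.7 with CBLB502, 47.5, 59.4 and 61.5 with cisplatin, and 12.7, 18.2 and 16.8 in controls.

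Most p53 targets tested were higher after cisplatin, with and without CBLB502. In the combination over CBLB502, 20 of 29 were higher (12.7% of all genes), and in cisplatin over control 22 of 29 were higher (22.7% of all genes). For the interaction none of the 29 was called in either direction, with a median of -0.39, against 7.74% of all genes. At an unadjusted p under 0.05 there were 8 of the 29, DESeq2 called 1 and limma-voom 0. Leaving out cisplatin library 6, 8 were lower and 1 higher. Cdkn1a, the cell cycle inhibitor p21, had 396, 329 and 330 CPM in the combination, 8.77, 6.16 and 6.9 with CBLB502, 1147, 1101 and 135 with cisplatin, and 29.2, 17.1 and 25.5 in controls. The combination lay between cisplatin libraries 4 and 5 and library 6, and the interaction was 0.54 ± 0.777 (adjusted p = 0.73), or 0.03 without library 6 (adjusted p = 1). Against cisplatin without that library the combination was lower (-1.67 ± 0.204, adjusted p = 0.000182). Mdm2, the ubiquitin ligase of p53, was at -0.64 (adjusted p = 0.425), and called without cisplatin library 6 (-1.0, adjusted p = 0.0119).

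Of the other genes on the lower side with the smallest unadjusted p between the combination and cisplatin, Itgb6 and Irgm1 kept their calls in all 12 fits without 1 library. Itgb6, an epithelial integrin subunit, had 38.8, 44.8 and 46.5 CPM in the combination, 75.8, 62.0 and 75.2 with CBLB502, 186, 181 and 74.5 with cisplatin, and 25.2, 58.9 and 38.2 in controls (-2.56 ± 0.484, adjusted p = 0.0116). Irgm1, an interferon-induced GTPase, had 74.6, 59.3 and 69.9 CPM in the combination, 98.6, 86.2 and 87.6 with CBLB502, 186, 118 and 166 with cisplatin, and 65.6, 54.0 and 49.1 in controls (-1.90, adjusted p = 0.00286). In Irgm1 every cisplatin library, library 6 included, lay above all others, and the combination overlapped the controls. The potassium channel subunit gene Kcne4 (-3.86, adjusted p = 0.0446) and Fchsd1 (-1.63, adjusted p = 0.0461) lost their calls without any library other than cisplatin 6, at 0.0573 to 0.116 and 0.0749 to 0.11, and with limma-voom (0.343 and 0.153).

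Transporters that move platinum drugs were called lower in 5 of 14 cases and higher in none, with and without cisplatin library 6 (medians -1.09 and -1.06). Over all genes, 5.64% were lower with that library and 14.7% without it, so the same count stands against a larger share. The efflux pump Abcg2 had 343, 284 and 362 CPM in the combination, 376, 403 and 489 with CBLB502, 344, 287 and 317 with cisplatin, and 154, 204 and 158 in controls. Its combination and cisplatin libraries overlapped, CBLB502 lay above them and controls lowest (-1.23 ± 0.242, adjusted p = 0.0136, called in all 12 fits without 1 library). The copper transporter Slc31a1, a route of cisplatin uptake, had 174, 141 and 163 CPM in the combination, 170, 187 and 201 with CBLB502, 110, 90.4 and 156 with cisplatin, and 54.8, 74.1 and 37.2 in controls (-1.32, adjusted p = 0.0417). Its call ended without any library other than cisplatin 5 and 6 and control 2 (0.067 to 0.108), and with median-of-ratios scaling (0.0541). The efflux pumps Abcc2 (-1.48, adjusted p = 0.0446) and Abcc4 (-1.84, adjusted p = 0.0282) were also called, and each call ended without 9 and 8 of the 12 libraries, any combination library among them (0.0518 to 0.111). Slc22a2, the main kidney uptake transporter OCT2, was not called (-0.59, adjusted p = 0.415).

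Several genes of the distal tubule were high with CBLB502 and low in the combination. Of 24 genes of the thick ascending limb and distal convoluted tubule, 6 were called lower and 0 higher (median -0.95). Of 16 podocyte genes 4 were lower and 0 higher (median -0.81). Over all genes 5.64% were lower, or 14.7% without cisplatin library 6. Without cisplatin library 6, 7 of the 24 were lower and 7 higher (median -0.09), and 5 of the 16 lower and 1 higher. In CBLB502 over control 8 of the 24 (11.5% of all genes higher) and 4 of the 16 were higher.

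Slc12a3 (ENSMUSG00000031766, chromosome 8, 94329201 to 94366214), the thiazide-sensitive sodium chloride cotransporter, had 83.2, 141 and 116 CPM in the combination, 1177, 1398 and 1494 with CBLB502, 160, 174 and 268 with cisplatin, and 424, 338 and 430 in controls. No arm overlapped another: CBLB502 was highest, then controls, cisplatin and the combination. The interaction was -2.60 ± 0.343 (adjusted p = 0.00248) and -2.33 without cisplatin library 6 (adjusted p = 0.000195), called in all 12 fits without 1 library. CBLB502 was 3.41-fold its control (1.77, adjusted p = 0.000771), and the combination was lower than CBLB502 by -3.58 on the log2 scale (adjusted p = 6.33e-05).

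Trpm6, the magnesium channel of the same segment, had 3.4, 7.75 and 5.13 CPM in the combination, 16.7, 19.8 and 21.0 with CBLB502, 19.4, 20.3 and 10.8 with cisplatin, and 9.01, 5.09 and 7.37 in controls. Its CBLB502 and cisplatin libraries overlapped and lay above the others (-3.06 ± 0.493, adjusted p = 0.00604, called in all 12 fits). Umod, encoding uromodulin of the thick limb, had 1076, 2358 and 2313 CPM in the combination, 4078, 3432 and 2384 with CBLB502, 1350, 1035 and 2532 with cisplatin, and 534, 607 and 362 in controls. All treated libraries exceeded the controls (-2.49, adjusted p = 0.0205, ending at 0.058 to 0.0645 without CBLB502 library 4 or 5 or control library 3).

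Podocyte genes had summed levels of 531 to 571 CPM in the combination, 1018 to 1074 with CBLB502, 601 to 722 with cisplatin and 619 to 738 in controls, so the CBLB502 libraries stood apart. Nphs1, encoding nephrin of the podocyte slit diaphragm, had 30.8, 34.1 and 26.4 CPM in the combination, 33.1, 44.4 and 46.5 with CBLB502, 28.6, 42.3 and 30.7 with cisplatin, and 17.1, 14 and 16 in controls. The treated arms overlapped and the controls lay below all of them. The interaction was -1.56 ± 0.281 (adjusted p = 0.00954), or -1.63 without cisplatin library 6 (adjusted p = 0.00176), and it held in all 12 fits without 1 library. Nphs1 overlaps Nphs1os. No strand setting of the counting is stated, so reads of a gene and of an overlapping one cannot be told apart. Among other genes given here, this also touches Spp1, Dbp, Cdkn1a, Slc31a1, Pdia6, Umod, Por, Ace, Acsm1, Mt2, Fchsd1, Oasl1 and Serpina3m.

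Proximal tubule genes had 3 of 30 called lower, against 5.64% of all genes, and 0 higher (median -0.72). These were 6 lower and 5 higher without cisplatin library 6 (median -0.31), when 14.7% of all genes were lower and 9.69% higher. Cyp4b1 and Acsm1 were named among them, and Aqp1 was the other one (-1.88, adjusted p = 0.0396, ending without any combination, CBLB502 or control library at 0.0519 to 0.108). Acsm1, a medium-chain acyl-CoA synthetase of kidney, had 52.3, 64.4 and 68.3 CPM in the combination, 125, 157 and 205 with CBLB502, 103, 103 and 120 with cisplatin, and 86.2, 99.7 and 99.0 in controls. The combination libraries were the lowest and CBLB502 the highest (-1.59, adjusted p = 0.00695, called in all 12 fits). Lrp2, the uptake receptor megalin, and Kl, encoding klotho, were not called (-1.51 and -1.50, adjusted p = 0.169 and 0.218). Both were highest with CBLB502: Lrp2 had 690, 657 and 646 CPM in the combination, 1700, 1922 and 1929 with CBLB502, 351, 300 and 1152 with cisplatin, and 317, 760 and 687 in controls. Without cisplatin library 6 the combination had more Kl than cisplatin (1.58, adjusted p = 0.00107) and more Lrp2 (1.03, adjusted p = 0.0239).

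Collecting duct genes had 1 of 20 called (5 higher and 1 lower without cisplatin library 6), Slc4a9, an anion exchanger of intercalated cells. It had 134, 135 and 111 CPM in the combination, 118, 114 and 156 with CBLB502, 107, 107 and 94.8 with cisplatin, and 236, 246 and 266 in controls. The controls lay above all treated libraries, which was a higher interaction (1.24, adjusted p = 0.00875, called in all 12 fits).

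**Figure D4:**
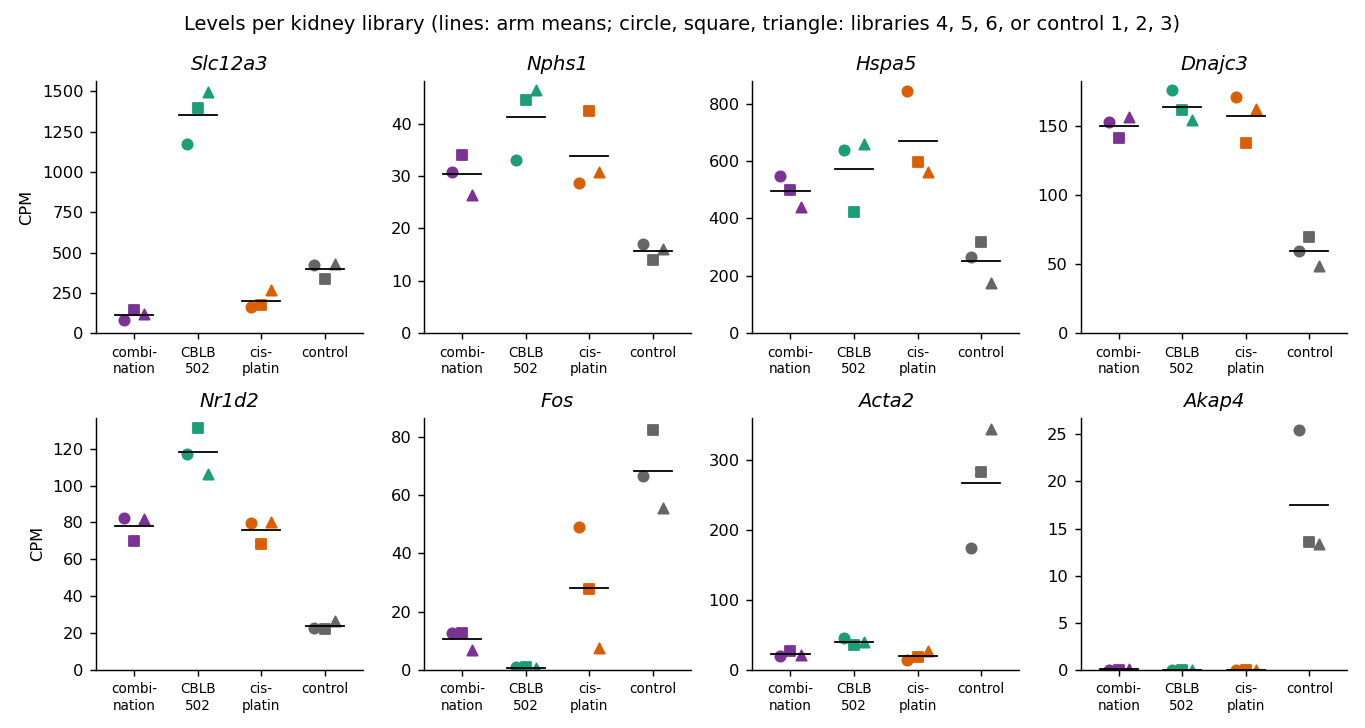
CPM on linear axes from 0 in each kidney library for tubule, podocyte, chaperone, clock, early response and non-kidney genes, by arm, with lines at arm means. Circles, squares and triangles stand for libraries 4, 5 and 6, or 1, 2 and 3 of the controls. Slc12a3 is high in the CBLB502 libraries alone, Nphs1 and Dnajc3 are low in the controls alone, and Fos, Acta2 and Akap4 are highest in the controls.

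Genes of the unfolded protein response had 7 of 20 called lower (5.64% of all genes) and 0 higher (median -1.05). Without cisplatin library 6 these were 8 (14.7% of all genes) and 0. This response raises chaperones of the endoplasmic reticulum (ER) when proteins misfold there, through the factors ATF6 and XBP1. ATF6 binds the ER stress element in promoters, which reads CCAAT, then 9 bases of any kind, then CCACG. Dnajc3, an ER co-chaperone, had 153, 141 and 156 CPM in the combination, 176, 161 and 154 with CBLB502, 171, 138 and 162 with cisplatin, and 59.2, 69.8 and 48.5 in controls. The treated arms overlapped and the controls lay below all of them (-1.53 ± 0.22, adjusted p = 0.0034). Hyou1, a chaperone of the same compartment, was at -1.66 (adjusted p = 0.0132), also with controls lowest. Both were called in all 12 fits without 1 library.

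The next members were named after their values were seen. Hspa5, the chaperone BiP, had 549, 498 and 440 CPM in the combination, 638, 423 and 659 with CBLB502, 846, 597 and 563 with cisplatin, and 266, 317 and 174 in controls (-1.62, adjusted p = 0.0213, ending at 0.0535 to 0.0695 without combination library 5 or 6, CBLB502 library 4 or 6 or control library 3). In Xbp1 the cisplatin arm split, at 277, 378 and 307 CPM in the combination, 194, 149 and 158 with CBLB502, 1620, 1093 and 284 with cisplatin, and 69.6, 98.6 and 59.8 in controls (-2.78, adjusted p = 0.0256, ending at 0.0534 to 0.0725 without any library other than cisplatin 5 and 6 and control 2). Pdia6, a disulfide isomerase, was at -1.38 (adjusted p = 0.0141, and 0.0509 without CBLB502 library 4). Manf and the co-chaperone Dnajb9 completed the 7, and their calls ended without 3 and 11 of the 12 libraries (0.0525 to 0.0997).

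Promoter windows of 300 bases, 250 before to 50 after the start, were taken from RefSeq for the mouse build GRCm38.p6. The ER stress element, searched on both strands, was in 39 of 32851 windows (0.119%), in 6 of the 18 list members with a window and in 3 of the 5 called members with a window. Those 3 are shown because they were called lower and hold the element, which is in capitals. The other list members with the element, Calr, Creld2 and Hsp90b1, were not called. A match describes the letters alone. The list was made of genes of the unfolded protein response, so its share of windows with the element is not a result of these libraries. Dnajc3 lies at chr14:118937682-118937981, Hspa5 at chr2:34771840-34772139 and Pdia6 at chr12:17266339-17266638, all on the plus strand.
Dnajc3: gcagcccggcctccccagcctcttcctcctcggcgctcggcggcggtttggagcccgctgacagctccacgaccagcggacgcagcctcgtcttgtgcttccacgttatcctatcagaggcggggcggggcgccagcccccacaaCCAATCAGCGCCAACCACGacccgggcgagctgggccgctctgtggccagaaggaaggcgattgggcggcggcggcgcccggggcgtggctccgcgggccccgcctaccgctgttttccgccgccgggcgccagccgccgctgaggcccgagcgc
Hspa5: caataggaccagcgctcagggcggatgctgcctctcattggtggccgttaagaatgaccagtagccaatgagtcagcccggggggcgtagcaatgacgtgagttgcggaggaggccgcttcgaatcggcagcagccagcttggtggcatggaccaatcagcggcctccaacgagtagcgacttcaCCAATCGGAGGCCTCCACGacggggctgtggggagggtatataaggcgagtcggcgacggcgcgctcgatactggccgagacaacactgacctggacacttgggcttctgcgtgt
Pdia6: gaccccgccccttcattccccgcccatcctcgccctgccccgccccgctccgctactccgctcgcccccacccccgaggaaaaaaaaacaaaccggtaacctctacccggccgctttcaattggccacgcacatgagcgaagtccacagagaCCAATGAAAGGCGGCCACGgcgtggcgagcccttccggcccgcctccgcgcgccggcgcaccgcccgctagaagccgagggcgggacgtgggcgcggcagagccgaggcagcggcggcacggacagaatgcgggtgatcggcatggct

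Clock genes moved in both directions. Of 22, 6 were called lower and 3 higher (median -0.43), against 5.64% and 2.1% of all genes. Without cisplatin library 6 these were 8 and 6, against 14.7% and 9.69% of all genes. Nr1d2 (ENSMUSG00000021775, chromosome 14, 18204054 to 18239127), the repressor REV-ERB beta, had 82.4, 69.8 and 82.1 CPM in the combination, 117, 131 and 106 with CBLB502, 79.7, 68.4 and 80.3 with cisplatin, and 22.6, 22.3 and 26.4 in controls. The cisplatin and combination libraries overlapped, CBLB502 lay above them and controls below (-2.27 ± 0.203, adjusted p = 0.000347). Dbp, an output factor of the clock, had 40.6, 39.7 and 40.3 CPM in the combination, 58.7, 78.0 and 69.2 with CBLB502, 37.0, 38.4 and 29.2 with cisplatin, and 13.0, 6.61 and 5.46 in controls. CBLB502 was again highest and control lowest, with the combination just above cisplatin (-2.86 ± 0.374, adjusted p = 0.00248), and both genes were called in all 12 fits without 1 library.

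On the higher side besides Noct stood Arntl, encoding the activator BMAL1, and its partner gene Npas2, both named after their values were seen. Arntl had 3.89, 6.84 and 5.5 CPM in the combination, 8.09, 5.98 and 4.88 with CBLB502, 9.04, 8.33 and 9.7 with cisplatin, and 29.3, 34.0 and 32.7 in controls, which lay above all treated libraries (1.61, adjusted p = 0.0212). That call ended without combination library 5 or 6, CBLB502 library 5 or 6 or control library 3 (0.0502 to 0.0629), and Npas2's (2.09, adjusted p = 0.0426) without any library other than cisplatin 4 and 6 and control 1 (0.0592 to 0.102). The hour at which kidneys were taken is not stated for any arm, and its part in these levels was not tested.

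Immediate early genes, transcribed within minutes of a stimulus, had 4 of 19 called higher and 1 lower (median -0.08). Over all genes the shares were 2.1% and 5.64%. Without cisplatin library 6, 6 were higher and 7 lower, against 9.69% and 14.7% of all genes. Fos (ENSMUSG00000021250, chromosome 12, 85473890 to 85477273), a subunit of AP-1, had 12.5, 12.6 and 6.83 CPM in the combination, 0.816, 0.88 and 0.551 with CBLB502, 49.1, 27.6 and 7.5 with cisplatin, and 66.7, 82.5 and 55.7 in controls. The CBLB502 libraries were all under 1 CPM and the controls the highest (5.10 ± 0.759, adjusted p = 0.0041). CBLB502 against control was -6.51 (adjusted p = 0.000125) and the combination over CBLB502 was 3.82 (adjusted p = 0.000983). Nr4a1, a nuclear receptor of the same kind, had 21.9, 16.1 and 9.69 CPM in the combination, 2.62, 2.4 and 2.08 with CBLB502, 12.6, 16.8 and 5.35 with cisplatin, and 8.85, 17.4 and 24.4 in controls. Its CBLB502 libraries alone stood apart, below the rest (3.29 ± 0.652, adjusted p = 0.0141), and both genes were called in all 12 fits without 1 library. Dusp1 and Fosb were the other 2 higher genes and Ier3 the lower one. The Dusp1 call ended without combination library 4 or 5 (0.0537 and 0.0638), Fosb's without any library other than cisplatin 4 and 6 (0.0509 to 0.0965), and Ier3's without any other than cisplatin 6 (0.0556 to 0.0882).

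Of the metabolic lists, 5 of 30 genes of xenobiotic metabolism were lower, 3 of 30 of fatty acid oxidation and 4 of 28 of cholesterol and fatty acid synthesis, against 5.64% of all genes, and 0 of each were higher. Lower calls without cisplatin library 6 numbered 9, 8 and 5 and higher ones 4, 2 and 2. Cyp4a14 (ENSMUSG00000028715, chromosome 4, 115486200 to 115496142), a fatty acid hydroxylase induced by PPAR alpha, had 2186, 2302 and 3045 CPM in the combination, 163, 104 and 263 with CBLB502, 1311, 1896 and 1044 with cisplatin, and 5.19, 16.9 and 7.28 in controls. No arm overlapped another. The combination was 14.2-fold CBLB502 and cisplatin 145-fold control (interaction -3.32 ± 0.612, adjusted p = 0.0103), and the combination differed from cisplatin by 0.83 (adjusted p = 0.44). Por, the electron donor of cytochrome P450 enzymes, had 591, 534 and 521 CPM in the combination, 279, 339 and 334 with CBLB502, 748, 728 and 427 with cisplatin, and 65.2, 74.4 and 61.3 in controls (-2.45 ± 0.293, adjusted p = 0.00176). Its controls were the lowest and its combination and cisplatin libraries overlapped. Srebf2, the master regulator of cholesterol synthesis, was at -1.38 (adjusted p = 0.0154) and Cpt1a, which admits fatty acids to mitochondria, at -1.47 (adjusted p = 0.00973). All 4 were called in the 12 fits without 1 library.

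Nuclear-encoded respiratory chain genes had 2 of 32 lower (Cox5a and Cox8a, subunits of complex IV) and 1 higher (Uqcrb), with a median of -0.11, near that of all genes, and 5 lower and 2 higher without cisplatin library 6. The Cox8a and Uqcrb calls each ended without 8 of the 12 libraries (0.0518 to 0.113). Cox5a had 418, 427 and 432 CPM in the combination, 244, 234 and 263 with CBLB502, 395, 436 and 390 with cisplatin, and 118, 118 and 123 in controls, so the 2 arms with cisplatin overlapped while CBLB502 and controls each stood apart (-0.98, adjusted p = 0.00875). None of 34 cytosolic ribosomal protein genes was called by edgeR (median -0.09), with 3 at an unadjusted p under 0.05, 1 called by DESeq2, 0 by limma-voom and 5 lower without cisplatin library 6, although 33 were higher in each of the comparisons of the combination with CBLB502 and of cisplatin with control.

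Renin, klotho and vitamin D genes had 3 of 11 lower and 1 higher, against 5.64% and 2.1% of all genes. Without cisplatin library 6 these were 4 and 3, against 14.7% and 9.69% of all genes. Ace, the angiotensin-converting enzyme, had 91.0, 98.4 and 98.4 CPM in the combination, 179, 196 and 180 with CBLB502, 122, 51.7 and 162 with cisplatin, and 29.0, 34.7 and 32.1 in controls (-2.76, adjusted p = 0.0053, called in all 12 fits). CBLB502 was highest and control lowest. Vdr, the vitamin D receptor, was at -1.24 (adjusted p = 0.0223), and the call ended without combination library 4 or 5, any CBLB502 library or control library 1 or 3 (0.05 to 0.0712).

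Signalling and immune lists are set against 5.64% of all genes lower and 2.1% higher, or 14.7% and 9.69% without cisplatin library 6. In the list of TLR5 and NF-kB genes, 1 of 26 was lower and 0 higher (median -0.74), and 12 lower and 1 higher without cisplatin library 6. That 1 was Traf6, the ubiquitin ligase downstream of MyD88, with 19.9, 15.7 and 18.0 CPM in the combination, 30.0, 28.3 and 27.4 with CBLB502, 33.7, 32.7 and 23.1 with cisplatin, and 16.5, 20.7 and 17.5 in controls. The combination overlapped the controls and lay below the other 2 arms (-1.38 ± 0.258, adjusted p = 0.0107, called in all 12 fits but at 0.0526 with treated libraries thinned to control depth). Tlr5 itself was at or under 1.22 CPM in every library and 0 in 2 of them, and was not called (adjusted p = 0.896). Interferon-stimulated genes had 2 of 26 lower (Oasl1 and Rsad2, whose calls ended without 8 and 9 of the 12 libraries at 0.0533 to 0.116), and 3 lower and 1 higher without cisplatin library 6. Acute phase genes had 3 of 25 lower, and 8 without that library. Complement genes had 1 lower and 1 higher of 19, and 3 and 4 without it, and lymphocyte genes 1 of 22 higher (Cd8b1, ending without 9 libraries at 0.0701 to 0.116), and 3 without it.

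Further lists had no gene called by edgeR with 12 libraries, and each had calls without cisplatin library 6. Endothelial genes had 0 of 19 (1 at an unadjusted p under 0.05, 1 by DESeq2 and 0 by limma-voom), and 10 higher and 1 lower without it. Regulated cell death had 0 of 23 (4, 2 and 0 by the same measures), and 7 lower and 1 higher without it. The fasting and glucocorticoid response had 0 of 22 (5, 1 and 1), and 7 lower and 4 higher without it. Chemokines had 0 of 22 (3, 1 and 0) and DNA crosslink and excision repair 0 of 20 (1, 1 and 0), and each had 1 lower and 1 higher without it. Squamous stress keratins had 0 of 11 (2, 2 and 1), and 2 lower and 1 higher without it. Neutrophil genes had 0 of 8 (0, 0 and 0), and 1 lower and 0 higher without it.

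**Figure D5:**
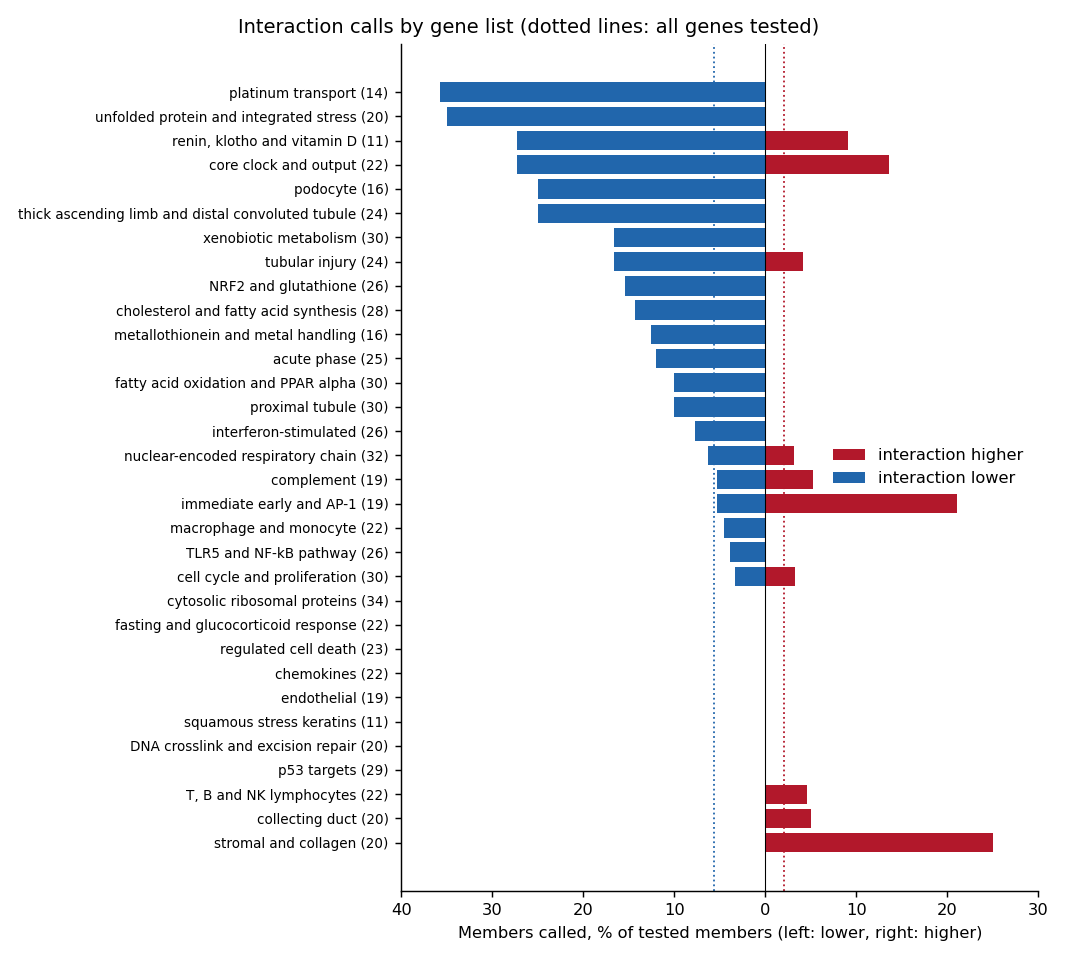
Share of tested members called lower (blue, left) and higher (red, right) for the interaction, in percent, for each pathway and kidney or immune cell list with at least 10 tested members, whose number stands in brackets. Marker lists of other tissues are not drawn. Dotted lines mark the shares over all genes tested, 5.64% lower and 2.1% higher. Platinum transport and the unfolded protein response lie farthest left, and stromal and early response genes farthest right.

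Transcripts of some other tissues were high in the control arm, and genes of the highest interactions were among them. The 8 highest named values belonged to genes that the treated arms almost lacked, and Akap4, Akap3, Meig1, Qrich2, Gsg1, Atp8b3, Akr1cl and Cyp11a1 had control levels of up to 32.2 CPM. Akap4 (ENSMUSG00000050089, chromosome X, 7067519 to 7078609), an anchor protein of the sperm tail, had 0, 0 and 0.103 CPM in the combination, 0 in all CBLB502 and all cisplatin libraries, and 25.5, 13.6 and 13.4 in controls. It was at least 903-fold lower with CBLB502 and at least 937-fold lower with cisplatin than in controls, against a floor of 3 counts over the arm (0.0194 and 0.0187 CPM). Among the others, Atp8b3 and Cyp11a1 were called in all 12 fits without 1 library. Akr1cl lost its call in 9, Meig1 and Gsg1 in 8 each, Akap3 in 5 and Qrich2 in 1, without combination library 4 (adjusted p 0.0538 to 1). The Akap4 fitted interaction (16.25, adjusted p = 0.0103) rests on zero arms and the call ended without combination library 6 (adjusted p = 1).

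A list of 25 male germ cell genes, made after these values were seen, had 9 called higher. Its summed level was 34.9 to 43.6 CPM in the combination, 35.7 to 39.2 with CBLB502, 33.0 to 51.9 with cisplatin and 213 to 456 in controls. Of its genes, 7 had no count in any treated library, Prm1, Prm2, Tnp1, Tnp2, Ldhc, Odf1 and Pgk2, and Prm2 had 54.8, 21.8 and 26.0 CPM in controls. Cyp11a1, the first enzyme of steroid synthesis, reached at most 0.222 CPM in treated libraries, against 15.1, 12.9 and 0.862 in controls (called in all 12 fits, not with limma-voom at 0.0743). The marker list of adrenal cortex had 3 of 7 tested genes higher, with sums of 5.04 to 9.62, 7.34 to 10.3, 6.48 to 9.46 and 17.5 to 74.2 CPM in the combination, CBLB502, cisplatin and control arms. The same 3 genes, Cyp17a1, Nr5a1 and Cyp11a1, were the 3 of 6 higher in a list of testicular Leydig cells made after these values were seen, with sums of 3.79 to 7.19, 4.48 to 6.12, 2.16 to 4.89 and 16.4 to 28.9 CPM in those arms. Which of these tissues the transcripts came from cannot be told apart.

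Smooth muscle and stromal genes were likewise high in controls. Acta2, smooth muscle actin, had 20.2, 27.0 and 21.5 CPM in the combination, 45.6, 35.3 and 40.1 with CBLB502, 13.4, 17.5 and 26.1 with cisplatin, and 174, 282 and 344 in controls (2.99, adjusted p = 0.00248, called in all 12 fits without 1 library). Control libraries were the highest and CBLB502 the next. Of 20 stromal and collagen genes 5 were higher (2.1% of all genes) and 0 lower (median 1.66). Without cisplatin library 6, 13 were higher (9.69% of all genes) and 1 lower. A smooth muscle list made after these values were seen had 6 of 14 higher, with summed levels of 306 to 375 CPM in the combination, 526 to 713 with CBLB502, 315 to 397 with cisplatin and 1482 to 2163 in controls. A list of histones and small RNAs without a poly(A) tail was high in controls as a sum. The sums were 16.3 to 24.7 CPM in the combination, 1.34 to 11.1 with CBLB502, 10.8 to 40.7 with cisplatin and 140 to 412 in controls. Of this list, Rn7sk had 11.6, 5.93 and 6.59 CPM in the combination, 0.482, 0.56 and 0.904 with CBLB502, 5.61, 17.2 and 2.29 with cisplatin, and 32.7, 11.7 and 14.5 in controls (4.85, adjusted p = 0.0132). Its CBLB502 libraries were the lowest, and cisplatin library 5 lay above control libraries 2 and 3. The part of such transcripts in the interaction calls was not tested.

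Adipose genes had 1 of 14 higher (Pparg, 3.65, adjusted p = 0.0396, ending without any library other than cisplatin 6 and control 2 at 0.0558 to 0.107, and with limma-voom at 0.108), with sums of 243 to 590, 209 to 416, 278 to 508 and 244 to 7199 CPM in the combination, CBLB502, cisplatin and control arms. Liver markers had 5 of 16 lower (5.64% of all genes) and 0 higher (median -2.20), and 9 lower (14.7% of all genes) without cisplatin library 6. Their sums were 787 to 1123 CPM in the combination, 568 to 844 with CBLB502, 837 to 2572 with cisplatin and 130 to 246 in controls. The 5 called lower were Apob, Fgb, Serpina1a, Serpina1e and Serpina1c. Some genes stand in several lists, and Fgb was also counted among the lower calls of the tubular injury and acute phase lists. Apob, the core protein of lipoproteins, had 274, 214 and 228 CPM in the combination, 204, 180 and 120 with CBLB502, 252, 205 and 168 with cisplatin, and 27.8, 35.8 and 27.3 in controls (-2.28, adjusted p = 0.00296, called in all 12 fits). Its controls lay below all treated libraries. Erythroid sums were 88.3 to 98.0 CPM in the combination, 423 to 1472 with CBLB502, 53.4 to 89.5 with cisplatin and 458 to 1883 in controls, and 0 of 8 erythroid genes was called by edgeR, DESeq2 or limma-voom (0 at an unadjusted p under 0.05). Skeletal muscle sums were 4.04 to 5.71 CPM in the combination, 41.4 to 54.0 with CBLB502, 4.22 to 13.6 with cisplatin and 80.0 to 83.3 in controls, with 0 of 12 called (3 at an unadjusted p under 0.05, 3 by DESeq2 and 0 by limma-voom). Macrophage genes had 1 of 22 called, and 5 higher and 2 lower without cisplatin library 6.

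The called member of the macrophage list was Arg1, arginase 1, one of 4 named genes without a count in any control library. Its level there is bounded by 3 counts over the arm. In cisplatin over control, 3 of the 22 macrophage genes were higher and 8 lower (median -2.25), against 22.7% and 15.5% of all genes. In the liver libraries of the fit of 24, Arg1 had arm means of 643 to 6278 CPM. Which cells its kidney counts came from was not tested. Arg1 had 11.5, 3.04 and 2.99 CPM in the combination, 3.84, 2.74 and 2.26 with CBLB502, and 6.96, 11.2 and 5.92 with cisplatin, which is at least 80.8-fold higher with cisplatin and at least 29.6-fold higher with CBLB502 than in controls. Mchr1, a receptor of a feeding peptide, was at least 65.7-fold and at least 14.5-fold higher in these 2 arms, and Serpina3m, a serine protease inhibitor, at least 101-fold and at least 5.29-fold. Arg1 had an adjusted p of 0.00831 and was called in all 12 fits without 1 library, while Mchr1 ended at 0.0521 to 0.0668 without any library other than CBLB502 6 and cisplatin 4, 5 and 6, and Serpina3m at 0.0573 to 0.0999 without any other than combination 4 and cisplatin 6, and limma-voom gave 0.221 and 0.185. Ugt1a10, Ugt1a6b and Ugt1a2 share exons with other genes of their locus and Adnp overlaps Gm20716, so these 4 named genes on the lower side are uncertain.

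Of the 76 named genes called, 40 kept their call in every fit that left out 1 library, as did 43 of all 107 called list members, and all 107 were called without cisplatin library 6. Setting the kidney interaction against the liver interaction in a fit of all 24 libraries called 1403 of 22723 genes (6.17%), with 760 higher (3.34%) and 643 lower (2.83%) in kidney. The liver libraries had the same 4 arms.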

How the data were processed

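RNA-seq read counts per gene were used from 1 table of 33272 genes, in which the authors deposited raw read counts for every liver and kidney library, per the file headers. The tools listed are FastQC and cutadapt 1.9, per the submitters' processing notes. The aligner, the counting tool and the genome build are not given in the sources used here. Of the gene IDs, 99.65% were found in GENCODE vM21 (GRCm38), and coordinates are given for that build. A further 24 columns of per-sample values were not used. The kidney columns were matched to arms by their names. In treated arms they are numbered 4 to 6 and in the control arm 1 to 3.

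After removal of 37 mitochondrial genes and 7 copies of them on chromosome 1, 12 kidney libraries were fitted together in R 4.3.3 with edgeR 4.0.16 (TMM scaling, default filter on low counts, quasi-likelihood test, Benjamini-Hochberg adjustment, threshold 0.05). Every adjusted p comes from this test unless another tool is named. CPM are on TMM-scaled library sizes, and SE is the log2 value divided by the square root of its F statistic. Depth was 52.9 to 77.1 M counts per library in all. With DESeq2 1.42.0, limma-voom (limma 3.58.1), other scaling and filters, thinning of treated libraries and each library left out, 21 settings were tried. Counts simulated from the means and spread of this fit, with known changes, were put through the same test after it. The outcome is not reported here.

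Genes were named by rule: the 8 highest and 8 lowest called interactions with a mean of at least 5 CPM in an arm, 6 each way that were also called between the combination and cisplatin, up to 2 called members of each list, and a set of known genes. Since 1 gene was called between the combination and cisplatin, genes with the smallest unadjusted p there stand in. The genes, lists and tests were chosen with earlier results of these data known, and 3 lists were added to 40 others after the values described here were seen. Some called genes are not reported here.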

Additional observations from a re-analysis of the deposited data

Results flagged for a closer look

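For 5 named genes the kidney interaction differed from the liver interaction in a fit of all 24 libraries, by edgeR's test of that difference itself. Tyms, the thymidylate synthase, was 1.25 in kidney and -0.96 in liver, a difference of 2.21 ± 0.403 (SE, adjusted p = 0.00388). Cox5a of complex IV was lower in both, at -1.04 in kidney and -2.27 in liver (difference 1.22 ± 0.28, adjusted p = 0.0143). Arg1, arginase 1, was -10.11 in kidney and -1.87 in liver (-8.23 ± 1.97, adjusted p = 0.0197). Meig1, a germ cell gene, was 10.94 in kidney and -5.88 in liver (16.82 ± 4.08, adjusted p = 0.0238). Rn7s2, a small RNA, was 5.77 in kidney and -3.28 in liver (9.05 ± 2.42, adjusted p = 0.031). Arg1 had no count in the kidney controls, so the size of its fitted value is no bound. Meig1 was almost absent from the treated kidney arms. Its interaction in the kidney fit ran from 9.90 to 16.43 with 1 library left out and lost its call in 8 of 12 such fits. The kidney controls enter every one of these differences, so the kind of control library cannot be told apart from a difference between tissues.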

How the results depend on the processing

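No paired analysis of the interaction was possible, since control columns are numbered 1 to 3 and treated ones 4 to 6. Among the 9 treated libraries, same-numbered ones did not deviate together (9 pairs, r of -0.13 to 0.06). In 18 pairs of unlike number r was -0.09 to 0.09. With 3 libraries an arm this cannot show whether libraries that share a number share anything else. With that number as a replicate block, chosen after seeing the data, edgeR gave 0 calls between the combination and cisplatin (2320 at an unadjusted p under 0.05) and 3680 between the combination and CBLB502. Without the block these libraries gave 0 (2754) and 4861. With 1 library left out, 137 (without CBLB502 library 4) to 2122 (without cisplatin library 6) genes were higher for the interaction and 427 to 3208 lower, at the same 2 libraries. DESeq2 gave 1296 higher and limma-voom 730 higher. Without cisplatin library 6 and control library 1, a choice made after seeing the data, 2183 were higher and 3362 lower. The combination against cisplatin gave 634 calls with DESeq2, 6 with limma-voom and 5533 without those 2 libraries. It gave 0 (edgeR without cisplatin library 4, with 1430 at an unadjusted p under 0.05) to 4629 with 1 library left out. CBLB502 against control ranged over 2150 (without CBLB502 library 5) to 6107 calls, and the combination against CBLB502 over 2551 (without CBLB502 library 4) to 7244, both highest without cisplatin library 6, or 8182 for the second without both libraries. The values of Cdkn1a, -0.14 without cisplatin library 6 and control library 1 (adjusted p = 0.771), and Tlr5, between -4.72 without combination library 4 and 0.98 without CBLB502 library 4 (adjusted p = 0.882 for the second), changed sign, and neither was called. The cause was not tested. With 3 libraries an arm and 5.05 to 10.1 M counts per control library, a gene under 0.0995 CPM in controls was below 3 counts over that arm.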
